A study of Mus musculus with 34 samples.

Results

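The nuclear genes of oxidative phosphorylation were followed in the cortex of R6/2 mice with and without an intact Hdac4 gene pair. They were taken by symbol. Nduf symbols gave the subunits and Ndufaf assembly factors of complex I, and also Ndufa4 and Ndufa4l2, which were counted with complex IV. The succinate dehydrogenase genes gave complex II, Uqcr genes and Cyc1 complex III, and Cox4i to Cox8 genes complex IV. Atp5 genes gave ATP synthase, and Cycs was taken as well. The rule named 92 genes of the 18193 genes with a probe set carrying a single symbol, and it used no measured value. Each gene was read from its brightest probe set, averaged over the 34 arrays, and none was removed for a low level.

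Whole cortex was profiled at 15 weeks of age on Affymetrix whole-genome mouse arrays with 3′ probe sets, with a single array per mouse. Dble::R6/2 mice (n = 9) carried the R6/2 transgene and 1 targeted Hdac4 allele. R6/2 mice (n = 9) carried the transgene, a fragment of the human HTT gene covering exon 1 with an expanded CAG repeat, and both Hdac4 alleles. Hdac4HET mice (n = 8) carried 1 targeted Hdac4 allele and no transgene, and WT mice (n = 8) carried neither. All were offspring of R6/2 males and Hdac4HET females on a (CBA×C57BL/6)F1 background. Mice lacking both Hdac4 alleles die soon after birth, so the design tests a reduced gene dose only, in every cell of the animal.

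Oxidative phosphorylation is the process by which mitochondria make most of the ATP of a neuron. Complexes I and II feed electrons from NADH and succinate into ubiquinone, complex III passes them to cytochrome c, complex IV passes them to oxygen, and ATP synthase uses the proton gradient that complexes I, III and IV build. Each complex other than complex II also holds subunits encoded by mitochondrial DNA, which the symbol rule does not take. Loss of complex II activity damages the striatum in rodents, and altered energy metabolism is a long-studied feature of Huntington's disease.

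The array values are log2 intensities and ran between 2.04 and 14.1, and array medians lay between 5.44 and 5.52. A difference of log2 values is given as a log2 change with its standard error (SE), and "called" means an adjusted p at or under 0.05 by limma with Benjamini-Hochberg adjustment over 45037 probe sets. P-values measure the spread between mice. Hdac4 itself was 7.58 ± 0.14 in Dble::R6/2, 7.91 ± 0.19 in R6/2, 7.58 ± 0.10 in Hdac4HET and 8.06 ± 0.13 in WT cortex (SD), a log2 change of -0.48 in Hdac4HET against WT (adjusted p = 0.0036, limma) and of -0.33 in Dble::R6/2 against R6/2 (adjusted p = 0.691). Several arrays stood apart: the sex labels of 15 of 34 arrays did not match the level of Xist, 4 arrays (WT replicates 2, 6 and 7 and Hdac4HET replicate 1) read pituitary prolactin (Prl) above 8, R6/2 replicate 2 carried epidermal transcripts, Hdac4HET replicate 7 carried muscle transcripts, and Dble::R6/2 replicate 8 had the highest mean of 5 choroid plexus markers, 7.70. That mean started at 4.85 in Dble::R6/2, and ran between 5.33 and 6.38 in R6/2, 5.06 and 5.85 in Hdac4HET and 4.82 and 5.63 in WT cortex. In R6/2 against WT 3 of the 5 markers were called higher, against 20.2% of all genes. In Dble::R6/2 against Hdac4HET 0 were called, and 1 had an unadjusted p under 0.05. The part of these markers in the results was not tested. Neuronal markers were present throughout, with the mean over 7 excitatory neuron markers between 10.8 and 11.6 on every array, and all 7 fell in R6/2 against WT. In whole tissue, fewer cells of a type and less RNA per cell cannot be told apart.

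The transgene was tested on arrays that do not overlap, as R6/2 against WT and as Dble::R6/2 against Hdac4HET. In R6/2 against WT, 30 of the 92 genes were called (32.6%), 24 higher and 6 lower. The same test called 32% of all genes, 20.2% higher and 11.8% lower, so the share of respiratory genes called was near that of all genes. It was lower than that of genes above the median level, a set not matched to the respiratory genes in brightness. With only the brighter probe sets fitted (above the median level), 34 of 87 respiratory genes were called, against 48.3% of genes. In Dble::R6/2 against Hdac4HET, 20 of the 92 genes were called (21.7%), 13 higher and 7 lower, against 30% of all genes, 18.3% higher and 11.7% lower. Without Dble::R6/2 replicate 8 the count was also 20. With only the brighter probe sets fitted, 23 of 87 were called, against 46.2% of genes. The changes were small: the median log2 change of the 92 genes was 0.02 and 0.06, against 0.02 and 0.02 over all genes, and on the brightest probe sets Cox6a2, Ndufaf6 and Ndufaf1 alone changed by more than 0.5 in either comparison.

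In total 13 genes were called in both comparisons, 43.3% of the R6/2 calls and 65% of the Dble::R6/2 calls, and all 13 moved the same way. Of these, 11 were higher (Ndufaf1, Ndufaf6, Ndufs7, Ndufa3, Ndufb8, Ndufb11, Ndufc2, Sdha, Uqcrc2, Cox6b1 and Atp5a1) and 2 lower (Cox6a2 and Ndufs8). Over all genes, 3982 were called in both, 68.3% and 72.9% of the lists, and 3979 of them had the same direction. Without the 4 arrays that read Prl, 15 genes were called in R6/2 against WT, 13 higher and 2 lower, against 22.4% of all genes, and all 15 were among the 30. Lost were Atp5a1, Atp5g3, Atp5h, Atp5mpl, Cox6a1, Cycs, Ndufa3, Ndufa10, Ndufb4, Ndufb5, Ndufb9, Ndufc2, Ndufs5, Ndufv3 and Uqcrb. Without R6/2 replicate 2, 28 of the 30 stayed called, and Ndufb4 and Ndufb9 did not.

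**Figure D1:**
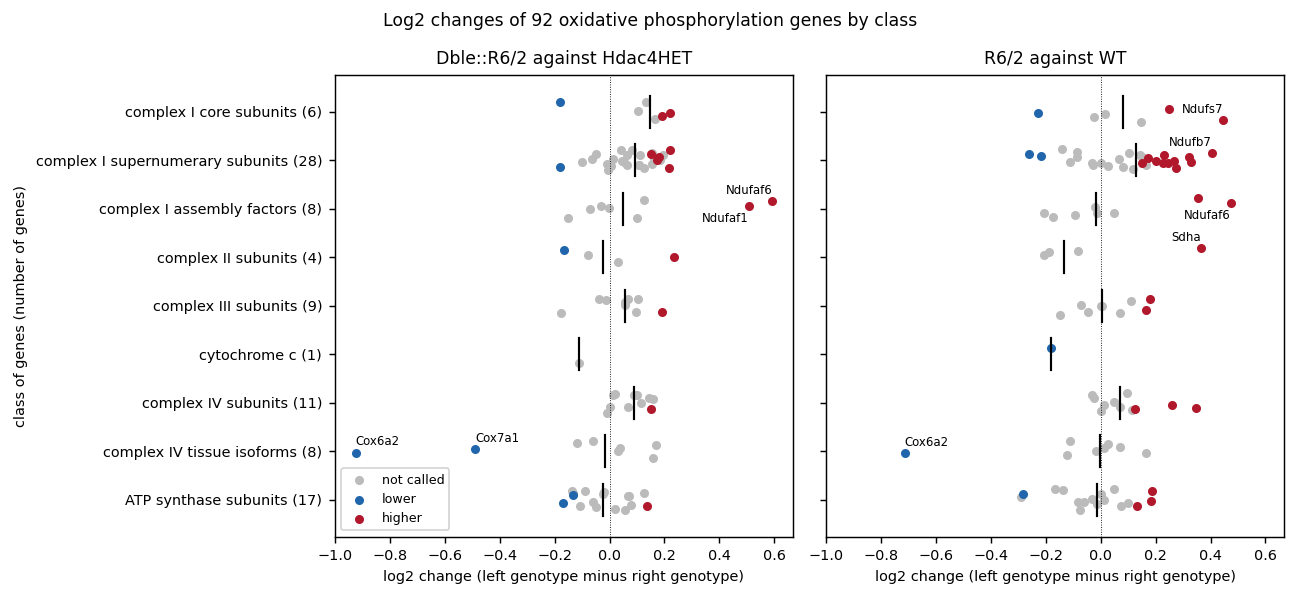
Log2 change of each gene, by complex, in Dble::R6/2 against Hdac4HET (left) and R6/2 against WT (right). Each point is a gene, red where called higher, blue where called lower and grey where not called, and vertical bars are class medians. Cox6a2 lies farthest to the left in both panels, at -0.93 and -0.71, and most called complex I genes lie right of 0.

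Complex I, the NADH dehydrogenase that starts the chain, gave 34 of the 92 genes. Of these nuclear subunits, 16 were called in R6/2 against WT (47.1%, against 32% of all genes; 13 higher, 3 lower), with a median log2 change of 0.13. In Dble::R6/2 against Hdac4HET, 9 were called (26.5%, against 30% of all genes; 7 higher, 2 lower), with a median of 0.11. All genes include dim ones, whereas 87 of the 92 respiratory genes lay among the brighter probe sets. With only those probe sets fitted, 48.3% of genes were called in R6/2 against WT. In Dble::R6/2 against Hdac4HET it was 46.2%. That fit had its own adjustment and called 34 and 23 of 87 respiratory genes. The complex I counts above are from the fit of all probe sets, so these shares are not strictly alike. Without the arrays that read Prl, 3 of which are WT, 8 of the 34 subunits were called in R6/2 against WT (7 higher, 1 lower) with a median of 0.10, while the share of all genes called was 22.4%. Without R6/2 replicate 2 it was 15.

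Averaged over the 34 subunits and set against the WT mean, single arrays lay at a log2 difference between 0.09 and 0.16 in Dble::R6/2 (median 0.12), between 0.04 and 0.20 in R6/2 (median 0.08), between -0.03 and 0.09 in Hdac4HET (median 0.05) and between -0.05 and 0.04 in WT cortex (median -0.00). Every array with the transgene lay above every WT array, the lowest R6/2 array narrowly, and R6/2 replicate 2 was the highest. The Hdac4HET arrays overlapped those of WT and R6/2. They also narrowly overlapped those of Dble::R6/2, with the highest Hdac4HET array at 0.0902 and the lowest Dble::R6/2 array at 0.0877. These means are described without a test, since they average the genes that were chosen.

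**Figure D2:**
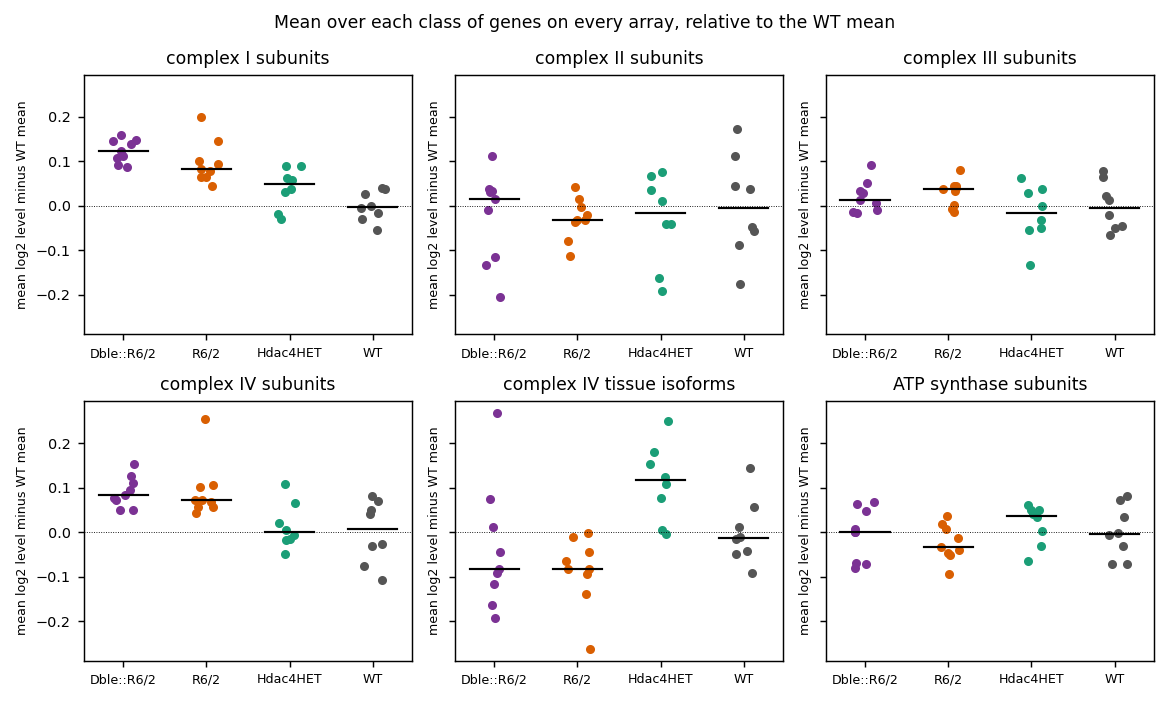
Mean log2 difference from the WT mean over the genes of each class, on each array, for Dble::R6/2 and R6/2 (n = 9 each) and Hdac4HET and WT (n = 8 each). Points are arrays and bars are medians; complex I means in R6/2 start just above the highest WT array, and those of ATP synthase overlap in all 4 genotypes.

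Among the core subunits, which carry the flavin and iron-sulphur clusters, Ndufs7 binds the cluster next to the ubiquinone site. Ndufs7 read 11.20, 11.42 and 11.62 in Dble::R6/2 (lowest, median and highest array), 11.32, 11.42 and 12.00 in R6/2, 11.11, 11.22 and 11.36 in Hdac4HET and 10.86, 11.01 and 11.30 in WT cortex. Its log2 change was 0.45 ± 0.09 (SE) in R6/2 against WT (adjusted p = 0.000576, limma) and 0.22 ± 0.07 in Dble::R6/2 against Hdac4HET (adjusted p = 0.0177). R6/2 and WT arrays did not overlap, whereas 6 of 9 Dble::R6/2 arrays lay above all Hdac4HET arrays. The neighbouring cluster subunit Ndufs8 moved the other way on its brightest probe set, and was called lower in both comparisons: -0.23 ± 0.06 (adjusted p = 0.00737) and -0.18 ± 0.06 (adjusted p = 0.0312, limma). Its second, dimmer probe set was not called, at 0.02 (adjusted p = 0.87) and -0.10 (adjusted p = 0.30, limma). All 9 arrays of R6/2 lay below the WT mean of Ndufs8 and 8 lay below its lowest WT array. Ndufv1, which holds the flavin that takes electrons from NADH, was called in R6/2 against WT, at 0.25 ± 0.05 (adjusted p = 0.00189), and not in Dble::R6/2 against Hdac4HET, at 0.13 ± 0.06 (adjusted p = 0.12). Ndufs3, another core subunit, was called in Dble::R6/2 against Hdac4HET (0.19 ± 0.05, adjusted p = 0.0144), with 0.15 ± 0.06 in R6/2 against WT (adjusted p = 0.0695, limma). Ndufs1, with the most iron-sulphur clusters of the complex, averaged 10.23 ± 0.15 in Dble::R6/2, 10.26 ± 0.10 in R6/2, 10.13 ± 0.13 in Hdac4HET and 10.24 ± 0.08 in WT cortex (SD), and was not called.

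The supernumerary subunits surround the core and stabilise it. In R6/2 against WT 11 of 28 rose (39.3%) and 2 fell (7.14%), against 20.2% and 11.8% of all genes. In Dble::R6/2 against Hdac4HET 5 rose (17.9%) and 1 fell (3.57%), against 18.3% and 11.7% of all genes. Ndufb7, a subunit of the membrane arm, had the largest change of the 28 in R6/2 against WT. It read 11.30, 11.42 and 11.82 in Dble::R6/2, 11.26, 11.39 and 11.83 in R6/2, 11.12, 11.30 and 11.54 in Hdac4HET and 10.84, 11.06 and 11.23 in WT cortex. The log2 change was 0.41 ± 0.08 in R6/2 against WT (adjusted p = 0.000608, limma) and all R6/2 arrays lay above all WT arrays. In Dble::R6/2 against Hdac4HET it was 0.18 ± 0.09 (adjusted p = 0.153), and there the arrays overlapped. A second, dimmer probe set of Ndufb7 was called higher in both, at 0.32 (adjusted p = 0.0015) and 0.25 (adjusted p = 0.027, limma). Ndufb11, also of the membrane arm, rose in both, by 0.32 ± 0.05 (adjusted p = 0.000174) and 0.22 ± 0.05 (adjusted p = 0.00313), with no overlap of arrays in either comparison.

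Ndufa3, Ndufb8 and Ndufc2 rose in both comparisons, with log2 changes of 0.23, 0.23 and 0.20 in R6/2 against WT and of 0.22, 0.18 and 0.15 in Dble::R6/2 against Hdac4HET. Ndufa2, Ndufa5, Ndufb4, Ndufb5, Ndufb9 and Ndufv3 were called higher in R6/2 against WT and not in Dble::R6/2 against Hdac4HET, with changes between 0.15 for Ndufb9 and 0.33 for Ndufa5 (Ndufb4 from a dim probe set), and the sign was the same in both. Ndufa10 (-0.26) and Ndufs5 (-0.22) were called lower in R6/2 against WT, and had -0.10 and -0.06 in the other comparison, without a call. A second, dimmer probe set of Ndufa10 was called lower in Dble::R6/2 against Hdac4HET (-0.41, adjusted p = 0.0015). It was not called in R6/2 against WT (-0.12, adjusted p = 0.46, limma). Ndufa8 rose (0.17, adjusted p = 0.0121) and Ndufb2 fell (-0.18, adjusted p = 0.0111, limma) in Dble::R6/2 against Hdac4HET, and had 0.15 and -0.14 in R6/2 against WT, without a call.

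Of the 8 Ndufaf genes, whose proteins help to assemble complex I and are not part of it, 2 were called, both higher and in both comparisons. That is 25%, against 20.2% and 18.3% of all genes called higher. Ndufaf6 had the largest rise of the 92 genes in each. Ndufaf6 read 7.48, 7.90 and 8.10 in Dble::R6/2, 7.50, 7.65 and 8.00 in R6/2, 6.998, 7.26 and 7.44 in Hdac4HET and 6.89, 7.25 and 7.40 in WT cortex. The change was 0.47 ± 0.08 in R6/2 against WT (adjusted p = 0.000214, limma), or 1.39-fold, and 0.59 ± 0.09 in Dble::R6/2 against Hdac4HET (adjusted p = 5.3e-05), or 1.51-fold. No array with the transgene overlapped its control arrays.

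Ndufaf1 read 8.82, 8.99 and 9.08 in Dble::R6/2, 8.67, 8.91 and 9.02 in R6/2, 8.17, 8.47 and 8.56 in Hdac4HET and 8.41, 8.50 and 8.68 in WT cortex. The changes were 0.35 ± 0.06 in R6/2 against WT (adjusted p = 0.000393, limma) and 0.51 ± 0.06 in Dble::R6/2 against Hdac4HET (adjusted p = 6.2e-06). All 9 Dble::R6/2 arrays lay above all Hdac4HET arrays, and 8 of 9 R6/2 arrays lay above all WT arrays. The other 6 assembly factors had log2 changes of both signs and none was called.

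**Figure D3:**
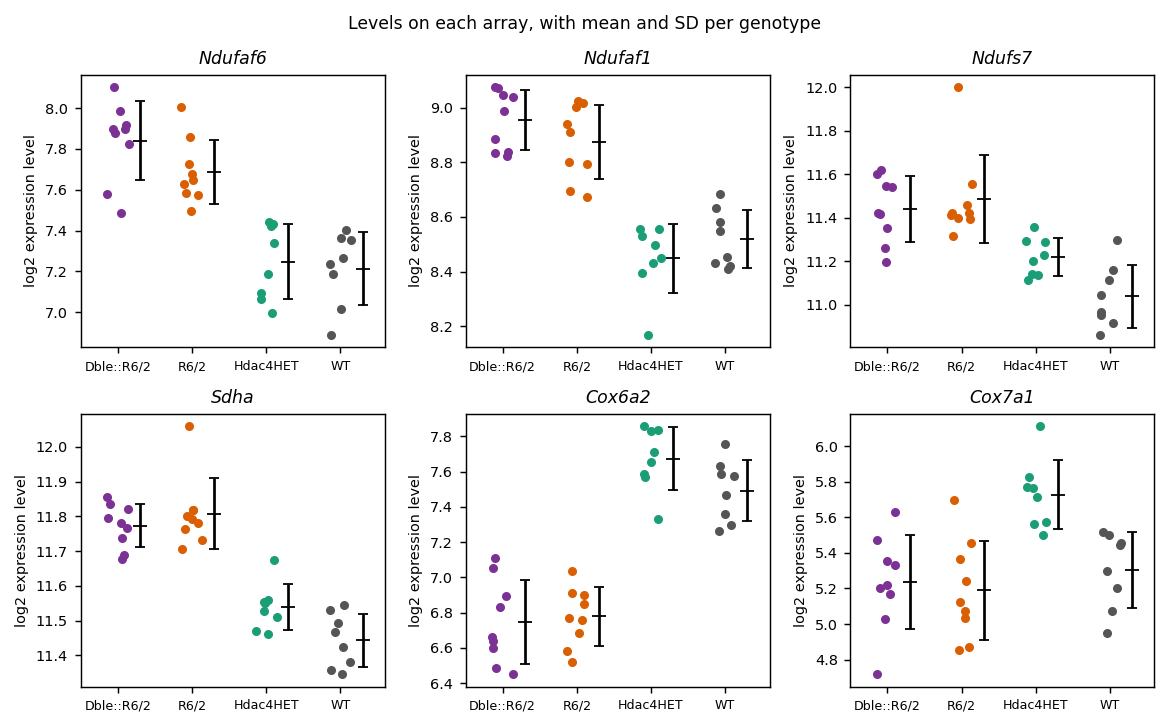
Log2 intensity on each array of Ndufaf6, Ndufaf1, Ndufs7, Sdha, Cox6a2 and Cox7a1 in Dble::R6/2, R6/2 (n = 9 each), Hdac4HET and WT cortex (n = 8 each). Points are arrays, and bars are the mean and SD; Cox6a2 has no overlap between arrays with and without the transgene, and Cox7a1 is highest in Hdac4HET.

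Complex II, succinate dehydrogenase, has 4 nuclear genes and no mitochondrial one. Sdha, the flavoprotein that oxidises succinate, read 11.68, 11.78 and 11.86 in Dble::R6/2, 11.71, 11.79 and 12.06 in R6/2, 11.46, 11.54 and 11.67 in Hdac4HET and 11.35, 11.45 and 11.54 in WT cortex. Its log2 change was 0.37 ± 0.05 in R6/2 against WT (adjusted p = 4.8e-05, limma) and 0.24 ± 0.05 in Dble::R6/2 against Hdac4HET (adjusted p = 0.000793). Arrays with and without the transgene did not overlap. A second, dimmer probe set of Sdha gave -0.04 (adjusted p = 0.76) in R6/2 against WT, without the rise, and 0.20 in Dble::R6/2 against Hdac4HET. The iron-sulphur subunit Sdhb was not called (log2 change -0.08 in both comparisons), nor was Sdhd, an anchor in the membrane (-0.21, adjusted p = 0.08, and 0.03). Sdhc, the other anchor, was called lower in Dble::R6/2 against Hdac4HET (-0.17, adjusted p = 0.039) and had -0.19 in R6/2 against WT (adjusted p = 0.097, limma).

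The promoters of Sdha, Ndufaf1 and Ndufb7 are shown, from RefSeq (GRCm38.p6), because these genes stood among the larger rises on their brightest probe sets, Sdha with the exception just given, and hold motifs common in genes of mitochondrial proteins. The NRF1 motif is the site of nuclear respiratory factor 1, here with any base at the sixth position of its palindrome, and CCGGAAG is a site form of ETS factors such as GABP, both long linked to these genes. Both strands of 250 bases before to 50 bases after the start were searched, and capitals mark matches to the NRF1 motif or to CCGGAAG. The Sdha window, chr13:74350191-74350490 on the minus strand, held 3 matches to the NRF1 motif, and the Ndufaf1 window, chr2:119662785-119663084 (minus strand), and the Ndufb7 window, chr8:83566508-83566807 (plus strand), held 1 match each to CCGGAAG.
Sdha: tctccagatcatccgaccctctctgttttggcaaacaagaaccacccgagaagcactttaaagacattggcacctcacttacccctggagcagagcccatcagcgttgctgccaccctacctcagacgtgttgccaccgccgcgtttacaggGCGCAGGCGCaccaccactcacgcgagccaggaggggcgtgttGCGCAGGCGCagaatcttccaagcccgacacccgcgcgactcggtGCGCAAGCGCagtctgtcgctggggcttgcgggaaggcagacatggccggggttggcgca
Ndufaf1: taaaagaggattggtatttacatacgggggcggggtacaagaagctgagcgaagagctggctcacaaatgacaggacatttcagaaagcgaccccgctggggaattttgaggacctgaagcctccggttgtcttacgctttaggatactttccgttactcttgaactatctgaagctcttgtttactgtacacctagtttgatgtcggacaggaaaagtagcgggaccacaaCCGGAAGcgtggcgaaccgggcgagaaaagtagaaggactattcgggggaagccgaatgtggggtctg
Ndufb7: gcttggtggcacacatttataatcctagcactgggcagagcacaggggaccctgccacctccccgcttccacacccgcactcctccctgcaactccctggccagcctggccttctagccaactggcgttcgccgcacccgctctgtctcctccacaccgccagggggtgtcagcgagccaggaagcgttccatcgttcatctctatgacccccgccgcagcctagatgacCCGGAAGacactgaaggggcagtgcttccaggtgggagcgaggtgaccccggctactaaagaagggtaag

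Of the 92 genes, 75 had a promoter entry. The NRF1 motif was found in 17 of the 75 (22.7%), against 7.17% of 17492 promoters of protein-coding genes and 5.19% of all 27025, and CCGGAAG in 19 (25.3%), against 12.9% and 9.93%. The exact NRF1 palindrome was found in 6 (8%), against 1.47% and 1.07%. Called and uncalled genes both held them: the NRF1 motif was found in 6 of 18 promoters of genes higher in R6/2, 1 of 4 of genes lower and 10 of 53 of the rest. A match describes letters in the window and nothing of binding. Cox6a2 and Ndufaf6 had no entry.

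Complex III, which carries electrons to cytochrome c, had 2 of 9 genes called in R6/2 against WT, Uqcrc2 (0.16 ± 0.05, adjusted p = 0.0198) and Uqcrb (0.18 ± 0.06, adjusted p = 0.0224, limma), both higher. This share, 22.2%, was near the 20.2% of all genes called higher. Uqcrc2, a core protein of the matrix side, was also called in Dble::R6/2 against Hdac4HET (0.19 ± 0.05, adjusted p = 0.00933). The catalytic subunits were not called: Cyc1, cytochrome c1, averaged 11.02 ± 0.06 in Dble::R6/2, 11.05 ± 0.09 in R6/2, 10.97 ± 0.07 in Hdac4HET and 10.94 ± 0.11 in WT cortex (SD). Neither was Uqcrfs1, the Rieske iron-sulphur protein, at 10.17 ± 0.23 in Dble::R6/2, 10.27 ± 0.14 in R6/2, 10.10 ± 0.20 in Hdac4HET and 10.32 ± 0.15 in WT cortex.

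Complex IV, cytochrome c oxidase, had 3 of 11 common subunits called in R6/2 against WT, all higher: Cox6b1 (0.26 ± 0.06, adjusted p = 0.00187), Cox6a1 (0.13 ± 0.04, adjusted p = 0.0289) and Cox7a2l (0.35 ± 0.09, adjusted p = 0.00573, limma). The share was 27.3%, against 20.2% of all genes called higher. Cox7a2l is known for a role in supercomplexes of III and IV. Cox6b1, on the side that meets cytochrome c, was also called in Dble::R6/2 against Hdac4HET (0.15 ± 0.04, adjusted p = 0.0183), with no overlap of arrays in either comparison. Cox4i1, an early-assembling subunit, averaged 13.06 ± 0.05 in Dble::R6/2, 12.99 ± 0.05 in R6/2, 12.97 ± 0.05 in Hdac4HET and 12.94 ± 0.03 in WT cortex (SD), and was not called. The class mean over the 11 genes was highest on R6/2 replicate 2, at a log2 difference of 0.25 from WT.

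The isoforms of complex IV used in particular tissues gave the largest change of the 92 genes in both comparisons. Cox6a2, the form known from heart and skeletal muscle, read 6.45, 6.66 and 7.11 in Dble::R6/2, 6.52, 6.77 and 7.03 in R6/2, 7.33, 7.68 and 7.86 in Hdac4HET and 7.26, 7.52 and 7.76 in WT cortex. The log2 change was -0.71 ± 0.08 in R6/2 against WT (adjusted p = 3.4e-06, limma), which is 61.0% of the WT level, and -0.93 ± 0.10 in Dble::R6/2 against Hdac4HET (adjusted p = 1.01e-06), or 52.7% of the Hdac4HET level. All arrays with the transgene lay below all arrays without it. A second, dimmer probe set of Cox6a2 gave -0.69 and -1.04.

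Cox6a2 is known in the brain from parvalbumin neurons, and many neuronal and glial markers fell beside it. In R6/2 against WT 4 of 6 parvalbumin neuron markers fell (median log2 change -0.43, Pvalb -0.62) and in Dble::R6/2 against Hdac4HET 6 of 6 fell (median -0.59, Pvalb -0.71). Their mean level ran between 9.44 and 9.84 in R6/2 and between 9.88 and 10.1 in WT cortex, and between 9.37 and 9.74 in Dble::R6/2 and 9.97 and 10.2 in Hdac4HET cortex. Muscle markers fell in 3 of 11 and 2 of 11 cases, and their mean level ran between 4.09 and 4.92 in R6/2 and 4.34 and 4.49 in WT cortex, and between 4.16 and 4.46 in Dble::R6/2 and 4.41 and 6.15 in Hdac4HET cortex. The broader GABAergic neuron markers fell further, 5 of 6 (median -0.88) and 6 of 6 (median -0.94), excitatory neuron markers in 7 of 7 (median -0.36) and 6 of 7 (median -0.30), microglia markers in 3 of 5 (median -0.66) and 4 of 5 (median -0.58) and astrocyte markers in 4 of 7 in each. In R6/2 against WT 1 astrocyte marker rose. Oligodendrocyte markers fell in 2 of 6 in each. Of 5 endothelial markers, 1 rose in R6/2 against WT and 1 fell in Dble::R6/2 against Hdac4HET. Over all genes, 11.8% and 11.7% were called lower. The part of any of them in the result was not tested.

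Cox7a1, the muscle form of another subunit, was called lower in Dble::R6/2 against Hdac4HET (-0.49 ± 0.11, adjusted p = 0.0019) and not in R6/2 against WT (-0.11, adjusted p = 0.532, limma). It read 4.72, 5.22 and 5.63 in Dble::R6/2, 4.85, 5.12 and 5.69 in R6/2, 5.50, 5.74 and 6.11 in Hdac4HET and 4.95, 5.37 and 5.51 in WT cortex. This is a dim probe set, near the array medians of 5.44 to 5.52. The highest array was Hdac4HET replicate 7, the one with muscle transcripts, and without it the change in Dble::R6/2 against Hdac4HET was -0.44 (adjusted p = 0.00428). The transgene by Hdac4 interaction was -0.38 (adjusted p = 0.43). Cox4i2, Cox6b2, Cox7b2, Cox8b, Cox8c and Ndufa4l2 were not called.

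ATP synthase, which makes ATP, had 4 of 17 genes called in R6/2 against WT (23.5%, against 32% of all genes) and 3 of 17 in Dble::R6/2 against Hdac4HET (17.6%, against 30%). Atp5a1, the alpha subunit of the catalytic F1 head, rose in both, by 0.18 ± 0.04 (adjusted p = 0.00466) and 0.14 ± 0.05 (adjusted p = 0.0389, limma). Atp5b, the beta subunit and a qPCR reference gene of the study, was not called, at -0.14 (adjusted p = 0.38) and 0.06, and its lowest array was R6/2 replicate 2 at 11.73. Atp5h, of the peripheral stalk, rose by 0.19 ± 0.05 in R6/2 against WT (adjusted p = 0.00495), and had 0.08 in Dble::R6/2 against Hdac4HET. Its lowest R6/2 array (12.4061) lay only just above its highest WT array (12.4052). A second, dimmer probe set of Atp5h gave -0.13 in R6/2 against WT (adjusted p = 0.067, limma). Without the arrays that read Prl, Atp5h was not called.

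The proton channel gene Atp5g3 rose in R6/2 against WT (0.13, adjusted p = 0.023), while the sister genes for the same protein Atp5g1 (0.10) and Atp5g2 (-0.29, adjusted p = 0.067) were not called. Atp5mpl, a small subunit, fell in R6/2 against WT (-0.28, adjusted p = 0.013). Atp5d (-0.17, adjusted p = 0.0388) of the central stalk and Atp5j2 (-0.13, adjusted p = 0.0344, limma) of the membrane part were called lower in Dble::R6/2 against Hdac4HET. Cycs, cytochrome c, carries electrons between complexes III and IV and read 11.03, 11.57 and 11.66 in Dble::R6/2, 11.42, 11.67 and 11.83 in R6/2, 11.45, 11.60 and 11.73 in Hdac4HET and 11.63, 11.86 and 11.97 in WT cortex. It was lower in R6/2 against WT (-0.18, adjusted p = 0.042), with 4 of 9 arrays below the lowest WT array, and Dble::R6/2 against Hdac4HET gave -0.11 (adjusted p = 0.384).

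Genes with a second probe set gave a check on these values. Of the 45 genes with a second probe set brighter than the median of all probe sets, 20 were called on the brightest and 18 on the second in R6/2 against WT, and 9 on both, 8 of them in the same direction (Cox6a1, Cox6b1, Cycs, Ndufa3, Ndufb7, Ndufb11, Ndufs7 and Ndufv1). Of the 20, 7 had the opposite sign on the second probe set, among them Sdha, at 0.37 on the brightest and -0.04 on the second, and Ndufb9, at 0.15 and -0.17, called both ways. Ndufa5 had 0.33 and 0.00. In Dble::R6/2 against Hdac4HET, 13 and 11 were called, 7 on both, and none of the 13 had the opposite sign. Other genes were called on the second probe set and not on the brightest. Ndufs4, a supernumerary subunit of complex I, had -0.67 (adjusted p = 2.2e-05) on the second and -0.03 on the brightest in R6/2 against WT, and -0.58 (adjusted p = 0.0015) and 0.11 in Dble::R6/2 against Hdac4HET. Ndufv2, a core subunit, had 0.48 (adjusted p = 5.2e-05) and -0.02 in R6/2 against WT, and 0.26 (adjusted p = 0.0021) and 0.16 in Dble::R6/2 against Hdac4HET. Ndufab1, the mitochondrial acyl carrier protein, had 0.65 (adjusted p = 0.024, limma) and 0.00 in R6/2 against WT.

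The gap between the probe sets of Sdha was 0.39, 0.45 and 0.84 in Dble::R6/2, 0.41, 0.65 and 1.18 in R6/2, 0.34, 0.49 and 0.73 in Hdac4HET and 0.17, 0.24 and 0.58 in WT cortex. It was wider in R6/2 than in WT for 32 of the 45 genes (71.1%), against 61.8% of 4890 other genes, with a median difference of 0.087 and 0.090. It was wider in Dble::R6/2 than in Hdac4HET for 26 (57.8%), against 59.4%, and in Hdac4HET than in WT for 35 (77.8%), against 57.2%. Its part in the changes was not tested. Without the array of the widest gap in each genotype, 14 complex I subunits were called in R6/2 against WT.

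**Figure D4:**
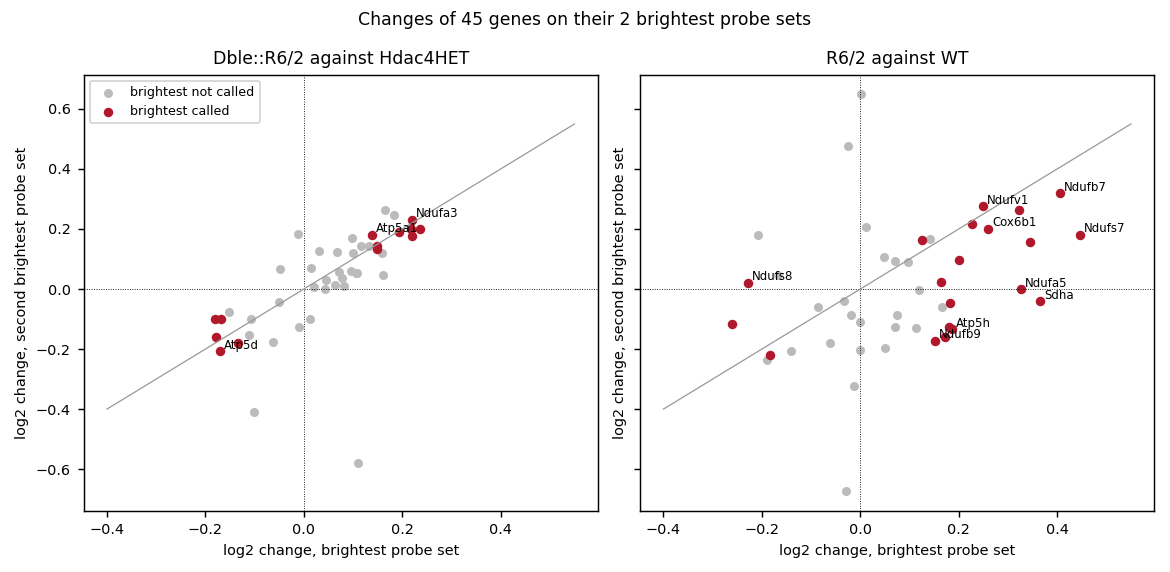
Log2 change on the brightest probe set (x axis) and on the second brightest (y axis) for 45 genes in Dble::R6/2 against Hdac4HET and R6/2 against WT. Points are genes, red where the brightest was called, and the grey line marks equal change; in R6/2 against WT 7 called genes lie on the other side of 0.

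In Hdac4HET against WT 4 of 92 were called (4.35%), 3 higher and 1 lower, against 3.17% of all genes, 1.46% higher and 1.71% lower. The 4 were Cox7a1 (0.42 ± 0.10, adjusted p = 0.032), Ndufa5 (0.29 ± 0.06, adjusted p = 0.0293), Ndufb7 (0.27 ± 0.07, adjusted p = 0.0477) and Cycs (-0.23 ± 0.06, adjusted p = 0.044, limma). For Cox7a1, 7 of 8 Hdac4HET arrays lay above all WT arrays, and for Cycs 4 of 8 lay below all WT arrays. None of the 4 was called without the arrays that read Prl, or without Hdac4HET replicate 7, where Cox7a1 had 0.37 (adjusted p = 0.0608).

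In mice with the transgene, Dble::R6/2 against R6/2, no respiratory gene was called by limma (0 of 92, and 0% of all genes), and 4 had an unadjusted p under 0.05. The methods' t-test with Benjamini-Hochberg adjustment also called 0. The log2 changes ran between -0.16 for Cycs and 0.27 for Cox8b, and the 95% interval lay within 1.3-fold for 86 of the 92 genes. Cox6a2 differed by -0.03, with an interval between -0.23 and 0.16. The interaction of transgene and Hdac4 allele, which asks whether the transgene changed a gene by another amount on the Hdac4HET background, called none of the 92 (0% of all genes; 5 unadjusted), ran between -0.38 for Cox7a1 and 0.24 for Sdhd, and its interval lay within 1.3-fold for 71 genes. For the other genes the interval reached past 1.3-fold, so a difference of that size was not excluded.

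The assembly factors of the other complexes were read beside the subunits. Of 18 for complex IV, 7 rose and 1 fell in R6/2 against WT, and 6 rose and 1 fell in Dble::R6/2 against Hdac4HET. Over all genes the shares were 20.2% higher and 11.8% lower in R6/2 against WT, and 18.3% higher and 11.7% lower in Dble::R6/2 against Hdac4HET. Surf1 changed by 0.30 and 0.35, Cox16 by 0.38 and 0.54, Cox20 by 0.34 and 0.32 and the copper chaperone Sco2 by 0.29 and 0.34. Without the arrays that read Prl, Sco2 had 0.22 in R6/2 against WT (adjusted p = 0.136, limma) and was not called. Surf1 averaged 10.45 ± 0.06 in Dble::R6/2, 10.43 ± 0.11 in R6/2, 10.09 ± 0.08 in Hdac4HET and 10.13 ± 0.08 in WT cortex (SD). Of 10 for complexes II and III, 1 rose and 2 fell in R6/2 against WT, and 1 rose in Dble::R6/2 against Hdac4HET. Sdhaf1, which helps to insert the iron-sulphur clusters of Sdhb, rose by 0.50 in both, at 8.52 ± 0.16 in Dble::R6/2, 8.51 ± 0.08 in R6/2, 8.02 ± 0.18 in Hdac4HET and 8.02 ± 0.11 in WT cortex, while Sdhaf2 (-0.35) and Sdhaf3 (-0.31) fell in R6/2 against WT, Sdhaf3 without a call once the Prl arrays were left out (-0.27, adjusted p = 0.0619). Of 8 further complex I assembly factors, 2 fell in R6/2 against WT, Tmem126b by 0.61 and Tmem70 by 0.33, and none was called in Dble::R6/2 against Hdac4HET. Both were also called lower in Hdac4HET against WT, at -0.43 and -0.42, but not without the Prl arrays (-0.36, adjusted p = 0.218, and -0.40, adjusted p = 0.214), without Hdac4HET replicate 7 (adjusted p = 0.0791 and 0.0655) or with sex read from Xist (adjusted p = 0.137 and 0.12, limma). Of 6 genes that assemble or regulate ATP synthase, Atpif1, its inhibitor, fell in R6/2 against WT (-0.14), though not without the Prl arrays (-0.12, adjusted p = 0.156), and no gene of these lists was called in Dble::R6/2 against R6/2.

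A single gene of mitochondrial DNA had its own probe set, ND5, a core subunit of the membrane arm of complex I. It read 10.67, 12.22 and 12.80 in Dble::R6/2, 11.99, 12.71 and 13.11 in R6/2, 12.04, 12.47 and 12.90 in Hdac4HET and 12.40, 13.18 and 13.47 in WT cortex. It was called lower in R6/2 against WT (-0.49, adjusted p = 0.030) and in Hdac4HET against WT (-0.72, adjusted p = 0.0264, limma). Without the Prl arrays neither was called (-0.37, adjusted p = 0.215, and -0.64, adjusted p = 0.21), nor was the Hdac4HET change without Hdac4HET replicate 7 (adjusted p = 0.0538) or with sex read from Xist (adjusted p = 0.0965, limma). Neither Dble::R6/2 against Hdac4HET (-0.35) nor Dble::R6/2 against R6/2 (-0.58) gave a call for ND5. Arrays of all genotypes overlapped.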

How the data were processed

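Log2 array values were deposited by the authors for 34 arrays. RNA from cortex was labelled as biotinylated cRNA, hybridised to Affymetrix mouse arrays, and checked for quality, poor arrays being dropped. The normalisation method was not given in the sources used here.

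Genotypes came from the sample labels. Of 45037 probe sets, 34945 had 1 gene symbol in the platform annotation, 932 several and 9160 none, and only the first kind was named. Pairwise comparisons were fitted by limma 3.58.1 in R 4.3.3 (lmFit, eBayes), with Benjamini-Hochberg adjustment over all probe sets, and the interaction was fitted on all arrays. The script recovered seeded changes in simulated data. Named genes were every called member (up to 30 per comparison), complex II, cytochrome c, core subunits, isoform pairs and up to 4 genes per pathway list. Members and lists were chosen with earlier results of these data known.

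Alternatives covered quantile normalisation, brighter probe sets, array weights, trended and robust eBayes, sex as a covariate, replicate block, the methods' t-test, 1 model of 4 genotypes, averaged probe sets, and leaving out arrays with Prl above 8 or R6/2 replicate 2. Chosen after seeing the data were the second brightest probe set and leaving out Hdac4HET replicate 7, Dble::R6/2 replicate 8 or the widest-gap arrays. Array number limits precision.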

Additional observations from a re-analysis of the deposited data

Results flagged for a closer look

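Within single genotypes, 25 values of 53 genes stood apart from the other arrays, by Dixon's test of the gap to the nearest array, many of them on the same few arrays. With 212 groups of 8 or 9 arrays tested, chance alone gives about 10.6 at 1 in 20. R6/2 replicate 2, the array with epidermal transcripts and the widest gap between probe sets, was high for Sdha (12.06, others 11.71 to 11.82), Ndufs7 (12.00, others 11.32 to 11.55), Cox6b1 (13.06), Cox7a2 (12.93), Atp5h (12.66), Ndufb11 (12.08) and Ndufs3 (11.57). On the same array Atp5g2 (9.11, others 9.81 to 10.04), Atp5b (11.73), Uqcrc1 (10.73), Ndufa10 (10.57) and Ndufa8 (10.47) were low. Dble::R6/2 replicate 2 was high for Ndufb9 (12.30), Ndufv1 (11.83) and Cox7a2l (11.28) and low for Atp5g1 (10.41), and Dble::R6/2 replicate 1 was low for Ndufb5 (11.22).

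Among arrays without the transgene, Hdac4HET replicate 1 was low for Cox6b1 (12.50), replicate 5 high for Sdha (11.67), replicate 6 low for Ndufaf1 (8.17) and replicate 7 low for Atp5g3 (12.36). WT replicate 8 was high for Atp5h (12.41) and Ndufa5 (11.27) and low for Uqcrfs1 (9.99), and WT replicate 3 was low for Ndufa10 (11.15).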

How the results depend on the processing

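Without the arrays that read Prl above 8, R6/2 against WT called 15 of the 92 genes. On the second brightest probe set, 18 of 45 genes were called with a median log2 change of -0.041, and 11 of 45 in Dble::R6/2 against Hdac4HET. Signs turned there in R6/2 against WT for Atp5a1 (-0.046), Atp5h (-0.13), Ndufb5 (-0.16), Ndufb9 (-0.17, and -0.059 on the mean of its probe sets), Ndufs8 (0.022), Sdha (-0.041) and Uqcrb (-0.12). The core GCATGC of the NRF1 palindrome was found in 20% of the promoters, against 8% for the whole palindrome. The palindrome contains the core, so the core's share cannot be lower. Among protein-coding genes the shares were 9.22% and 1.47%. Why the calls and signs changed was not tested.

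Hdac4HET against WT called 4 genes, but 7 with brighter probe sets or without the widest-gap arrays, 8 with trended and robust eBayes, 1 with the methods' t-test or the mean of probe sets, and 0 with sex read from Xist, in a single fit of 4 genotypes, on the second probe set, without the Prl arrays or without Hdac4HET replicate 7. Under every alternative planned, 11 genes stayed called in R6/2 against WT, 8 in Dble::R6/2 against Hdac4HET and 0 in Hdac4HET against WT. Cox7a1, counted among the 8, was too dim to enter the fit of brighter probe sets, so that alternative did not test it.

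Samples were not treated as pairs by replicate number. Same-numbered arrays correlated above 0.1 in 4 of 8 pairs for R6/2 against WT, 3 of 8 for Dble::R6/2 against Hdac4HET, 3 of 8 for Hdac4HET against WT and 6 of 9 for Dble::R6/2 against R6/2 (up to 0.45), so not in every pair of any comparison. Whether some same-numbered arrays shared a batch was not tested. With the replicate number as a block, 21 genes were called in R6/2 against WT, 10 in Dble::R6/2 against Hdac4HET and 1 in Hdac4HET against WT.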
